A study of Mus musculus with 10 samples.

Results

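Beta cells were set against alpha and delta cells as 1 non-beta group. The genes described are those for which each of the 5 beta libraries lay above all 5 alpha and delta libraries, or each lay below all of them. Of the 19213 genes listed, 2050 were above and 2680 below by this rule. It has no fold threshold, so a gene enters however small the gap is. The cells came from islets of adult mice and were sorted by fluorescence before RNA sequencing. All animals were triple transgenic: they carried the beta cell reporter mIns1-H2b-mCherry, a floxed YFP allele, and either Sst-Cre or Gcg-cre. The mCherry-positive sort gave 5 beta libraries, 2 male and 3 female. YFP-positive cells of the Gcg-cre cross gave 3 alpha libraries, 2 male and 1 female. Those of the Sst-Cre cross gave 2 delta libraries, 1 of each sex. The sorted identities therefore rest on the Ins1, Gcg and Sst promoters, and a cell that had once used the Cre promoter keeps YFP. The islets of 10 to 12 mice of 1 sex made up a pool, and each pool gave beta cells together with either alpha or delta cells, but which libraries share a pool is not stated outright. Islets were kept overnight in medium with 5.5 mM glucose and serum, and dispersed with trypsin for the sort. The groups shared all of these steps, and no library came from unsorted or treated islets.

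Beta cells release insulin when glucose rises. Glucose enters, is phosphorylated and burned in mitochondria, and the ATP made closes potassium channels, which opens calcium channels and releases insulin granules. Alpha cells release glucagon when glucose is low, and delta cells release somatostatin, which restrains both neighbours. The 3 cell types come from common endocrine progenitors, share the machinery of granule secretion and are told apart by a small number of transcription factors and hormones.

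The libraries held 16688097 to 26684086 reads assigned to genes. Levels are in RPKM, read counts divided by the gene's length in kilobases and by the library total, and 1 RPKM stood for 16.7 to 26.7 reads per kilobase. By the markers of its own type, each sorted group matched its label. The summed level of 16 beta cell markers was 267000 to 496000 RPKM in beta, 4500 to 5360 in alpha and 31800 to 32600 in delta libraries. The 14 alpha markers summed to 250000 to 280000 RPKM in alpha libraries and the 12 delta markers to 54900 to 63500 in delta libraries. The 5 PP and epsilon cell markers summed to 44200 to 44800 RPKM in delta, 9630 to 15300 in alpha and 810 to 1560 in beta libraries. Hormones of the other sorted types were present throughout, at small shares of the level in their own type. These shares can still be high levels. In delta libraries Gcg stood at 21254 and 23233 RPKM, and the 14 alpha markers summed to 22200 to 24300. Gcg in delta libraries was 8.72% of its alpha mean, Sst in alpha libraries was 3.23% of its delta mean, and in beta libraries these were 0.578% and 0.746%. Ins2 was 0.752% of its beta mean in alpha and 1.03% in delta libraries. Acinar markers varied between libraries of a type, with sums of 117 to 3730 RPKM in alpha, 256 to 11700 in beta and 921 to 1160 in delta libraries. None of the 18 tested was without overlap between the groups, and 1 was called, higher in beta. Endothelial (3 tested), stellate and mesenchymal (2 tested) and Schwann cell markers (3 tested) summed to at most 16.0 RPKM in any library. None of these had every beta library above, and 1, 1 and 2 had every beta library below.

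Of the 12700 genes with at least 1 RPKM in at least 2 libraries, 1671 (13.2%) had every beta library above and 2225 (17.5%) had every beta library below. The difference was estimated with limma on log2(RPKM + 1), as beta minus the mean of alpha and delta with both types given equal weight. On that scale the change of a gene with low values is understated. A difference from the mean of 2 types can also come mostly from 1 of them, so its size need not hold for both. By limma 2928 genes (23.1%) were called higher and 4530 (35.7%) lower in beta, at a Benjamini-Hochberg adjusted p under 0.05. So 39.3% of the called genes were higher in beta, and 49.8% after median-ratio scaling of the libraries, which moved the median of all tested genes from -0.12 to 0.00709. The non-overlapping genes were almost all among those called, 1662 of 1671 above and 2215 of 2225 below. Since their own values chose them, their differences from beta are given below as a description with a standard error and without a p. Each gene named as above or below was also called, and a share near 13.2% or 17.5% in a gene list is no more than that of all tested genes.

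Most of these differences were modest. The median absolute log2 difference was 0.72 for the genes above and 0.83 for those below. A log2 difference of at least 2 was found for 169 genes above and 190 below. The nearest libraries of the 2 groups were at least 2-fold apart on the RPKM + 1 scale for 194 and 211 genes, and at least 4-fold apart for 60 and 46. In bulk libraries fewer cells of a type and less RNA per cell cannot be told apart. Values at the edge of the rule show how thin the margin can be. Runx1t1, a transcriptional corepressor, was just inside, with the highest beta library at 4.21 RPKM and the lowest non-beta library at 4.22. Far1 (22.8 and 22.9 RPKM) was just inside as well. Mir335 and Mir378, listed at 0 in every beta library and also in some non-beta libraries, were just outside.

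**Figure D1:**
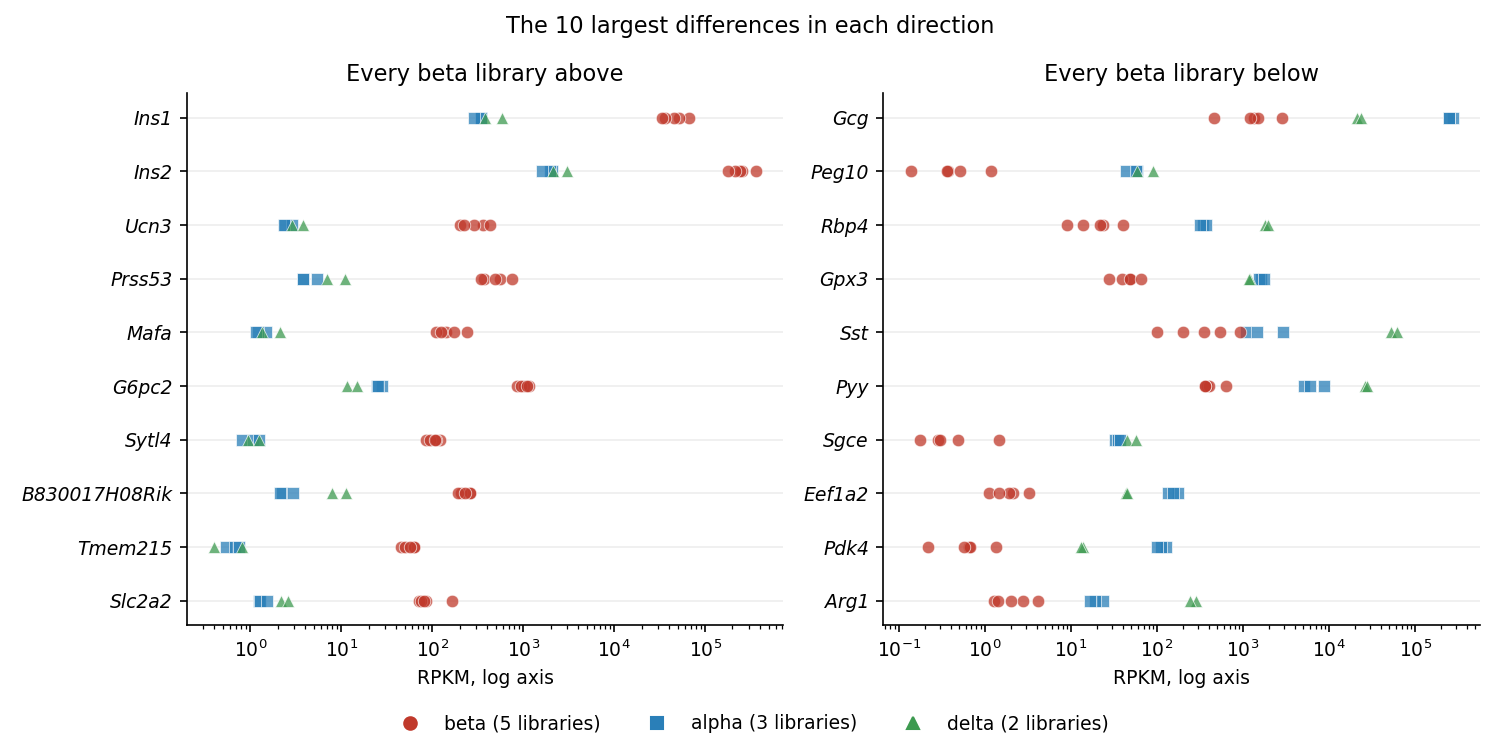
RPKM on a log axis for the 10 genes with the largest log2 difference in each direction, 1 symbol per library (beta circles, alpha squares, delta triangles). For Ins1 the beta libraries lie between 33373 and 66845 RPKM and all others at or under 578, while for Sst the highest beta library, at 922, lies close to the lowest alpha library, at 1080.

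Insulin led the genes above. Ins1 stood at 66845, 51639, 45620, 36446 and 33373 RPKM in beta replicates 1 to 5, at 341, 344 and 287 in alpha and at 380 and 578 in delta libraries, a log2 difference of 6.90 (SE 0.21). Ins2 stood at 363484, 252913, 239550, 214339 and 177833 RPKM in beta, at 2048, 1969 and 1617 in alpha and at 2124 and 2998 in delta libraries (6.84, SE 0.22). The groups were far apart for both genes, and alpha and delta were near each other. The 2 insulin genes are near-identical in their coding parts, and the labels do not state how reads that fit both were counted. Ucn3, a peptide of the corticotropin-releasing family that acts on delta cells, was at 359, 426, 285, 204 and 222 RPKM in beta, 2.43, 2.85 and 2.37 in alpha and 2.85 and 3.79 in delta libraries (6.23, SE 0.21). Prss53, a serine protease, was at 560, 756, 373, 491 and 346 RPKM in beta, 5.42, 3.84 and 3.81 in alpha and 7.0 and 11.1 in delta libraries (6.05, SE 0.23).

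The stretch of 250 bases before the RefSeq transcription start (GRCm38.p6) is shown for Ins1 and Ucn3, the leading hormones with an entry, and for the second annotated start of G6pc2, a glucose-6-phosphatase of islets described below, because they carry matches to motifs of islet factors. Capitals mark matches to CAGATG (an E-box form), to GTTGCC (an RFX core) or to TGCTGA (a MAF core), each searched on both strands. The windows are chr19:52264047-52264296 on the plus strand for Ins1, chr13:3945350-3945599 on the minus strand for Ucn3, and chr2:69219699-69219948 on the plus strand for G6pc2. The G6pc2 window lies within that gene, and none of the windows overlaps an annotated exon.
Ins1: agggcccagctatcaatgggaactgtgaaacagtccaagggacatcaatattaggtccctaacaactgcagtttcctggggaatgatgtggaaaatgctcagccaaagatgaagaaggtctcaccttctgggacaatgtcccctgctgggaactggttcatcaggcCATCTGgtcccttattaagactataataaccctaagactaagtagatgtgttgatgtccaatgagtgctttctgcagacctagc
Ucn3: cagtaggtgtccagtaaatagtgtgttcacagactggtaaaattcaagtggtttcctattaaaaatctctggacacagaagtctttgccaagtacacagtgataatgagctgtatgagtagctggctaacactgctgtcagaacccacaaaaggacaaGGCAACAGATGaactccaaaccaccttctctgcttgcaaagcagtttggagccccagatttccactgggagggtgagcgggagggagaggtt
G6pc2: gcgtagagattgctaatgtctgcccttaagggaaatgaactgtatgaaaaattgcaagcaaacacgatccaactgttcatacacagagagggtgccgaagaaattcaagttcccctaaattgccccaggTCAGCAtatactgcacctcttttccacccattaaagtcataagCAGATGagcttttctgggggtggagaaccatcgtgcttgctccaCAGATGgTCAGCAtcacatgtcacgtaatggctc
The windows were chosen to show matches: that of Slc2a2 and that of the first start of G6pc2 held none of the 8 motifs searched. In the Ins1 window the CAGATG match lay on the opposite strand, 84 bases before the start. For Ucn3, CAGATG began 87 bases before the start and shared 1 base with a GTTGCC match on the opposite strand at 92. The G6pc2 window had CAGATG at 78 and 34 bases and TGCTGA on the opposite strand at 121 and 27. Over all genes above with a log2 difference of at least 2, 139 of 169 (82.2%) had an entry, with 173 windows. Of these 23.7% held TGCTGA, beside 16.1% of all 32851 windows in the table. The other motifs stood at 13.9% beside 14.4% for CAGATG, 11% beside 10.4% for GTTGCC, 8.1% beside 12.4% for TATAAA, 4.6% beside 6.4% for GTTAAT (an HNF1 core), 2.3% beside 4.8% for TAATTA (a homeodomain core), 2.3% beside 3.2% for TGTTTAC (a forkhead core) and 1.2% beside 1.5% for TGACGTCA (the cAMP response element). Only 78.4% of the tested genes had an entry. Over their windows the shares were 12.5% for TGCTGA, 9.8% for CAGATG, 10.8% for GTTGCC, 6.3% for TATAAA, 4.0% for GTTAAT, 2.4% for TAATTA, 2.2% for TGTTTAC and 2.6% for TGACGTCA. For the E-box, the TATA box and the HNF1 and forkhead cores the genes above thus stood lower than all windows but higher than those of tested genes, and nothing is read from them. A match is a run of letters and no sign of binding. For the genes below only 74.2% had an entry, so that comparison is void.

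Among 31 tested hormones and secreted peptides, 10 had every beta library above and 7 every beta library below. Not all of the peptides above were low in both other types. Iapp, the amyloid peptide released with insulin, was at 51614 to 63052 RPKM in beta (median 53448), at 2233, 2599 and 2098 in alpha and at 29094 and 28798 in delta libraries. Its delta mean was 52.2% of the beta mean and its alpha mean 4.17%. Delta was above alpha by a log2 difference of 3.68 (SE 0.20, limma adjusted p = 1.71e-06). Pdyn, the dynorphin precursor, had the same order, with 128 to 208 RPKM in beta, 1.63 to 4.59 in alpha and 75.1 and 114 in delta libraries. Enho, which encodes adropin, was at 66.6 to 139 RPKM in beta, 1.70 to 2.64 in alpha and 39.2 and 42.3 in delta libraries.

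Of 45 tested islet transcription factors, 4 had every beta library above (Mafa, Pdx1, Nkx6-1 and Mnx1) and 18 every beta library below. These are 8.89% and 40.0%, beside 13.2% and 17.5% of all tested genes. Mafa, an activator of insulin transcription, was at 141, 239, 109, 172 and 125 RPKM in beta, 1.5, 1.21 and 1.17 in alpha and 1.33 and 2.14 in delta libraries (5.88, SE 0.18). Pdx1, which also activates insulin transcription and is known in delta cells, was at 86.0, 121, 85.6, 98.8 and 93.0 RPKM in beta, 5.08, 3.36 and 3.07 in alpha and 70.0 and 78.2 in delta libraries (2.35, SE 0.14). Mafa was thus low in both other types, while Pdx1 was called higher in delta than in alpha by 3.97 (SE 0.20, limma adjusted p = 9.45e-07).

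Some of the genes that bring glucose into the cell and on to the mitochondrion differed, and more of them overlapped. Of 31 tested genes of glucose uptake and glycolysis, 8 were above (25.8%), 3 below (9.68%) and 20 overlapped. Of 38 of pyruvate entry and the citric acid cycle, 13 were above (34.2%), 2 below (5.26%) and 23 overlapped. Aldoa, Gpi1 and Mdh2 were among those that overlapped, and limma called each of them higher in beta. Slc2a2, the high-capacity glucose transporter, stood at 84.8, 165, 72.4, 75.3 and 81.0 RPKM in beta, 1.24, 1.29 and 1.54 in alpha and 2.18 and 2.60 in delta libraries (4.98, SE 0.20). The other glucose transporter named, Slc2a3, was below, at 0.0674 to 0.227 RPKM in beta, 11.5, 15.3 and 15.0 in alpha and 5.96 and 5.78 in delta libraries (-3.14, SE 0.10). Beta libraries thus had 1 of these transporters and lacked most of the other. G6pc2, which takes the phosphate back off glucose, was at 860, 1022, 943, 1152 and 1106 RPKM in beta, 28.3, 24.5 and 25.1 in alpha and 11.6 and 14.8 in delta libraries (5.66, SE 0.09). Hk1, a hexokinase with high affinity for glucose, was below, at 0.182 to 0.997 RPKM in beta, 12.2 to 19.8 in alpha and 2.02 and 3.22 in delta libraries (-2.17, SE 0.18). Fbp1, an enzyme of gluconeogenesis, was below as well (-3.10, SE 0.34), with 3.67 to 17.5 RPKM in beta and 50.3 to 99.1 in the other libraries.

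At the pyruvate branch point, a kinase that blocks entry to the cycle was below and a carboxylase that feeds it was above. Pdk4, which inactivates pyruvate dehydrogenase, was at 0.221, 0.664, 0.669, 0.573 and 1.33 RPKM in beta, 126, 112 and 101 in alpha and 14 and 13 in delta libraries (-4.63, SE 0.16). Pcx, pyruvate carboxylase, was at 58.0, 69.3, 48.1, 45.6 and 42.5 RPKM in beta, 8.67, 8.43 and 8.52 in alpha and 4.17 and 6.06 in delta libraries (2.79, SE 0.15). The groups were apart for both, and for Pdk4 the delta libraries lay between beta and alpha. Fh1, fumarase, was at 156 to 238 RPKM in beta and 44.3 to 51.0 in the other libraries (1.88, SE 0.11). Got1, an enzyme of the malate-aspartate shuttle, and Pck2, the mitochondrial enzyme that makes phosphoenolpyruvate, differed by 1.27 (SE 0.15) and 1.26 (SE 0.13).

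Oxidative phosphorylation had 27 of 72 tested genes above (37.5%) and none below. By limma 46 of the 72 were called higher in beta, beside 23.1% of all tested genes, and the median log2 difference was 0.30. The count above was 19 (26.4%, beside 18.7% of all tested genes) after median-ratio scaling. It was 38 (52.8% beside 16.2%) after a share of the other sorted types, set by Gcg, Sst and Ins2, had been subtracted from each library. On average the subtraction takes larger shares off alpha and delta than off beta libraries. It thus favours a higher count by its construction, and nothing is read from that rise. The differences were small apart from 1 gene. Cox6a2, a muscle and heart form of a cytochrome oxidase subunit, was at 79.0, 84.2, 43.6, 68.6 and 37.0 RPKM in beta, 1.73, 0.989 and 1.39 in alpha and 0.976 and 1.88 in delta libraries (4.65, SE 0.25). Uqcrq, a subunit of complex III, was at 264 to 405 RPKM in beta and 96.9 to 126 in the other libraries (1.47, SE 0.13). Cox5a (1.06, SE 0.08), Atp5g1 (1.02, SE 0.15) and Ndufb9 (0.95, SE 0.08), of complexes IV, V and I, followed.

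**Figure D2:**
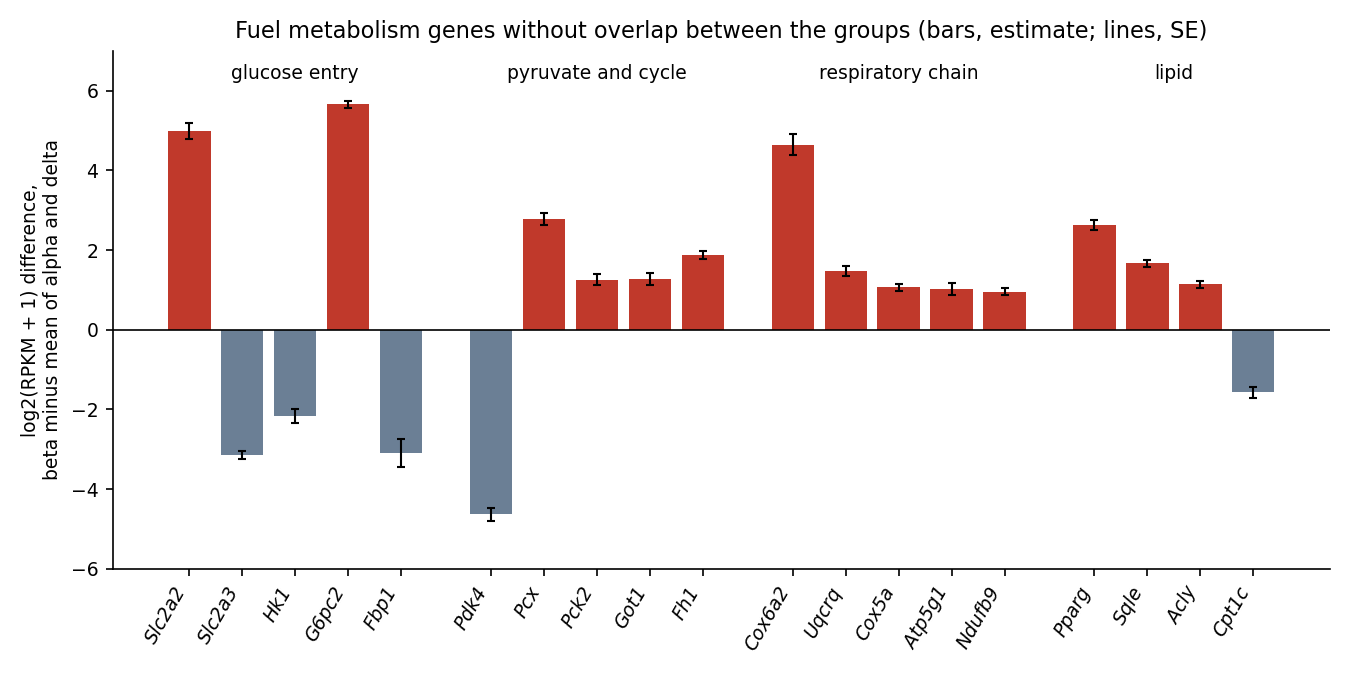
Log2(RPKM + 1) difference, beta minus the mean of alpha and delta, for named fuel metabolism genes (bars, limma estimate; lines, SE). Slc2a2 (4.98) and Slc2a3 (-3.14), and Pcx (2.79) and Pdk4 (-4.63), point in opposite directions, and the 5 respiratory chain genes are all above 0.

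In lipid and cholesterol metabolism 7 of 43 tested genes were above (16.3%) and 2 below (4.65%). Pparg, a nuclear receptor of fat metabolism, was at 13.3 to 17.1 RPKM in beta and 0.809 to 2.52 in the other libraries (2.63, SE 0.12). Sqle, an enzyme of cholesterol synthesis, was at 120 to 178 RPKM in beta and 40.4 to 46.8 elsewhere (1.67, SE 0.09). Acly, which makes cytosolic acetyl-CoA from citrate, differed by 1.14 (SE 0.09), and Cpt1c by -1.57 (SE 0.14). Hadh, a mitochondrial enzyme of fatty acid oxidation, was at 246 to 388 RPKM in beta, 9.43 to 12.6 in alpha and 174 and 192 in delta libraries (2.71, SE 0.13).

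Among 56 tested genes of granule exocytosis, 10 were above (17.9%) and 15 below (26.8%). Sytl4, granuphilin, which docks insulin granules at the plasma membrane, was at 84.8, 122, 94.4, 110 and 108 RPKM in beta, 0.809, 1.06 and 1.25 in alpha and 0.943 and 1.26 in delta libraries (5.61, SE 0.08). Its relative Sytl2 was below, at 0.0151 to 0.270 RPKM in beta, 9.64 to 12.8 in alpha and 1.20 and 1.73 in delta libraries (-2.32, SE 0.12). Rims3 was above (3.37, SE 0.14), and the calcium sensor Syt1 (-2.66, SE 0.13) and Stxbp5l, a tomosyn (-3.30, SE 0.20), were below. Members of the docking and fusion machinery thus lay on both sides.

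Of 34 tested genes of prohormone processing and zinc handling, 7 were above (20.6%) and 4 below (11.8%). Pcsk1, the convertase that starts proinsulin cleavage, was at 177, 304, 216, 269 and 284 RPKM in beta, 2.93, 3.23 and 3.33 in alpha and 30.1 and 27.4 in delta libraries (4.42, SE 0.12). Slc30a8, the zinc transporter of insulin granules and the 1 marker of 16 whose groups overlapped, was at 161 to 209 RPKM in beta, 371 to 421 in alpha and 43.3 and 44.3 in delta libraries. The metallothioneins, which bind zinc, were all above, with differences of 2.90 (SE 0.10) for Mt1, 3.13 (SE 0.11) for Mt2 and 2.46 (SE 0.22) for Mt3. Mt1 was at 2757 to 3628 RPKM in beta and 413 to 550 in the other libraries. Resp18, a granule protein, was below at 970 to 1094 RPKM beside 2599 to 3948 (-1.65, SE 0.10).

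Protein folding in the endoplasmic reticulum had 13 of 40 tested genes above (32.5%) and none below. The list was not higher in beta throughout. By limma 22 of the 40 were called higher and 6 lower in beta, beside 23.1% and 35.7% of all tested genes. Those 6 overlapped between the groups. Ero1lb, an oxidase that forms disulphide bonds, was at 209, 333, 202, 264 and 226 RPKM in beta, 21.4, 25.3 and 25.5 in alpha and 13.7 and 14.6 in delta libraries (3.60, SE 0.12). Targets of the stress-activated factor Atf4 were among those above: Trib3 (3.28, SE 0.17), Chac1 (2.28, SE 0.19) and Ddit3 (2.01, SE 0.16), as was Edem1, of glycoprotein degradation (1.63, SE 0.11). Chac1 was at 66.4 to 122 RPKM in beta, 3.03 to 5.11 in alpha and 61.8 and 64.2 in delta libraries. Delta was called above alpha for 35 of the 40 genes and alpha above delta for 1, beside 32.1% and 5.89% of all tested genes. The chaperone Hspa5 overlapped, at 648 to 802 RPKM in beta, 388 to 400 in alpha and 1093 and 1106 in delta libraries.

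Receptors for hormones and transmitters lay on both sides, with 14 of 48 tested above (29.2%) and 12 below (25.0%). Glp1r, the receptor of an incretin, was at 100.5, 204, 138, 144 and 166 RPKM in beta, 1.78, 2.72 and 2.91 in alpha and 35.5 and 44.3 in delta libraries (3.57, SE 0.14). Prlr, the prolactin receptor, was at 18.3, 28.5, 24.3, 44.4 and 34.9 RPKM in beta, 0.357, 0.468 and 0.368 in alpha and 1.01 and 1.03 in delta libraries (4.09, SE 0.18). The orphan receptor Gpr158 was at 14.5 to 24.4 RPKM in beta and 0.386 to 1.17 in the others (3.58, SE 0.13). On the other side, Oxtr, the oxytocin receptor, was at 1.30, 1.61, 1.63, 2.01 and 1.97 RPKM in beta, 46.9, 59.5 and 42.1 in alpha and 28.4 and 26.9 in delta libraries (-3.81, SE 0.12). Avpr1b, a vasopressin receptor, was at 0.0368 to 0.650 RPKM in beta, 38.0 to 49.1 in alpha and 3.57 and 4.62 in delta libraries (-3.58, SE 0.13).

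GABA and glutamate genes were often without overlap, 5 of 16 above (31.2%) and 8 below (50%). Gad1, which makes GABA, was at 27.6, 33.5, 31.2, 28.9 and 26.8 RPKM in beta, 0.501, 0.807 and 0.532 in alpha and 0.260 and 0.400 in delta libraries (4.38, SE 0.10). The GABA receptor subunit Gabbr2 was above (3.48, SE 0.19), as was the NMDA receptor subunit Grin1 (2.18, SE 0.12). The AMPA receptor subunits Gria2 (-3.41, SE 0.18) and Gria3 (-2.69, SE 0.28) were below. Gria2 was at 0.227 to 0.982 RPKM in beta, 17.1, 21.9 and 25.7 in alpha and 13.3 and 9.85 in delta libraries.

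Ion channels were below more often than above, by 9 against 4 of 29 potassium channels (31.0% and 13.8%) and by 14 against 4 of 38 calcium, sodium and other channels (36.8% and 10.5%). Kcnk3, a background potassium channel, was at 0.440, 0.526, 0.488, 0.633 and 0.964 RPKM in beta, 34.4, 31.5 and 33.9 in alpha and 12.1 and 13.7 in delta libraries (-3.80, SE 0.10). Kcnj3 (-2.91, SE 0.10), Kcna5 (-2.69, SE 0.09) and Kcnip3 (-2.47, SE 0.11) were below too, and Kcnj12 was above (2.12, SE 0.11). The subunits of the ATP-sensitive channel that couples glucose to insulin release overlapped, Kcnj11 at 58.3 to 72.4 RPKM in beta and 60.8 to 108 in the others, and Abcc8 at 182 to 268 and 212 to 538. Trpm5, a calcium-activated cation channel, was at 10.8 to 17.4 RPKM in beta and 0.0676 to 0.381 in the others (3.62, SE 0.14). Itpr1, the calcium release channel of the endoplasmic reticulum, was below at 3.03 to 7.87 RPKM beside 44.1 to 81.4 (-3.30, SE 0.18). The sodium channel genes Scn3a (-2.31, SE 0.26) and Scn3b (-2.77, SE 0.11) and the T-type calcium channel gene Cacna1h (-2.43, SE 0.09) were below. Cacna1h was high in delta libraries alone, at 26.6 and 23.6 RPKM, beside 0.439 to 0.685 in alpha and 0.0973 to 0.314 in beta. It was no longer called with alpha and delta as 1 group (limma adjusted p = 0.0961).

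In cAMP and G protein signalling 5 of 49 tested genes were above (10.2%) and 12 below (24.5%). Gnas, which encodes the stimulatory G protein subunit, was at 146, 178, 168, 177 and 171 RPKM in beta, 784, 731 and 799 in alpha and 646 and 733 in delta libraries (-2.14, SE 0.07). An antisense gene lies over part of Gnas, and the library kit does not keep the strand. Gng12 (2.25, SE 0.10) and the cGMP phosphodiesterase Pde5a (2.88, SE 0.12) were above, and Gng2 (-2.79, SE 0.19) and Gnai1 (-1.95, SE 0.23) below. Gnai1 was at 35.3 to 47.7 RPKM in alpha, but at 6.59 and 6.91 in delta beside 2.65 to 6.35 in beta libraries.

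Of the 2225 genes below, the hormones and factors of the other types come first by the way the groups were made. Gcg was at 464, 1352, 1485, 1218 and 2852 RPKM in beta, 272196, 244207 and 249087 in alpha and 21254 and 23233 in delta libraries (-5.99, SE 0.38). Sst was at 99.6, 200.4, 353, 535 and 922 RPKM in beta, 2937, 1080 and 1470 in alpha and 52388 and 60770 in delta libraries (-5.02, SE 0.55). Each was thus high in 1 type, and entered the rule because the other type still exceeded every beta library. Pyy and Ppy, related hormones known from PP cells, were high in both: Pyy was at 359 to 626 RPKM in beta, 8706, 5080 and 6034 in alpha and 26058 and 27812 in delta libraries (-5.00, SE 0.20). All 5 PP and epsilon cell markers were below, Ppy by -4.01 (SE 0.21) and Ghrl, ghrelin, by -1.08 (SE 0.36). Ghrl was at 9.45, 2.87 and 1.34 RPKM in alpha, 1.24 and 1.45 in delta and 0.202 to 1.0 in beta libraries, and its difference was -0.82 without alpha replicate 1. It was no longer called without beta replicate 1 or 3 or without either delta library (limma adjusted p = 0.0581 to 0.112). Of the 14 alpha markers 12 were below and 1, Gcgr, above. Of the 12 delta markers 5 were below and 1, Pdx1, above, and Hhex overlapped, at 0.345 to 2.67 RPKM in beta, 2.07 to 5.41 in alpha and 193 in both delta libraries.

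Other genes were low in beta and higher in both other types, with much smaller differences between those 2. For Sgce both delta libraries lay above every alpha library, and for Gpx3 both lay below. Peg10, a paternally expressed gene derived from a retrotransposon, was at 0.137, 0.375, 0.363, 0.516 and 1.17 RPKM in beta, 44.2, 58.3 and 57.7 in alpha and 57.9 and 88.8 in delta libraries (-5.48, SE 0.15). Sgce, its imprinted neighbour, was at 0.285, 0.175, 0.300, 0.482 and 1.46 RPKM in beta, 32.8, 34.9 and 37.6 in alpha and 45.4 and 56.6 in delta libraries (-4.91, SE 0.18). The 2 genes are annotated 101 bases apart on chromosome 6 of GRCm38 (Sgce at chr6:4674350-4747204 and Peg10 at chr6:4747306-4760517), and their levels had the same pattern across the groups. Delta minus alpha was 0.36 (SE 0.21, limma adjusted p = 0.213) for Peg10 and 0.47 (SE 0.26, limma adjusted p = 0.176) for Sgce. Gpx3, a secreted glutathione peroxidase, was at 27.5, 48.1, 39.2, 48.2 and 66.0 RPKM in beta, 1621, 1547 and 1736 in alpha and 1216 and 1185 in delta libraries (-5.03, SE 0.16). Fev, a transcription factor of endocrine progenitors and serotonin neurons, was at 0.664 to 1.06 RPKM in beta, 24.8, 22.6 and 21.9 in alpha and 22.1 and 23.9 in delta libraries (-3.64, SE 0.09). Fev was named for having one of the smallest delta minus alpha differences, at 0.00361 (SE 0.13).

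The other genes with the smallest delta-alpha difference, among those below with a log2 difference of at least 2, were Nefm, a neurofilament (-2.78, SE 0.15), Tnr, a tenascin (-2.41, SE 0.15), Akap17b (-2.71, SE 0.17) and Mir186 (-2.07, SE 0.45). Nefm was at 3.59 to 7.08 RPKM in beta and 35.9 to 46.3 in the others. Among the genes above, the smallest differences were those of Sytl4, Cox6a2, Kcnj12, Fam129a and Slco1a6. Fam129a was at 18.1 to 35.6 RPKM in beta and 0.152 to 0.511 in the others (4.03, SE 0.17), and Slco1a6, an organic anion transporter, at 8.48 to 15.5 and 0.384 to 0.782 (3.10, SE 0.13).

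**Figure D3:**
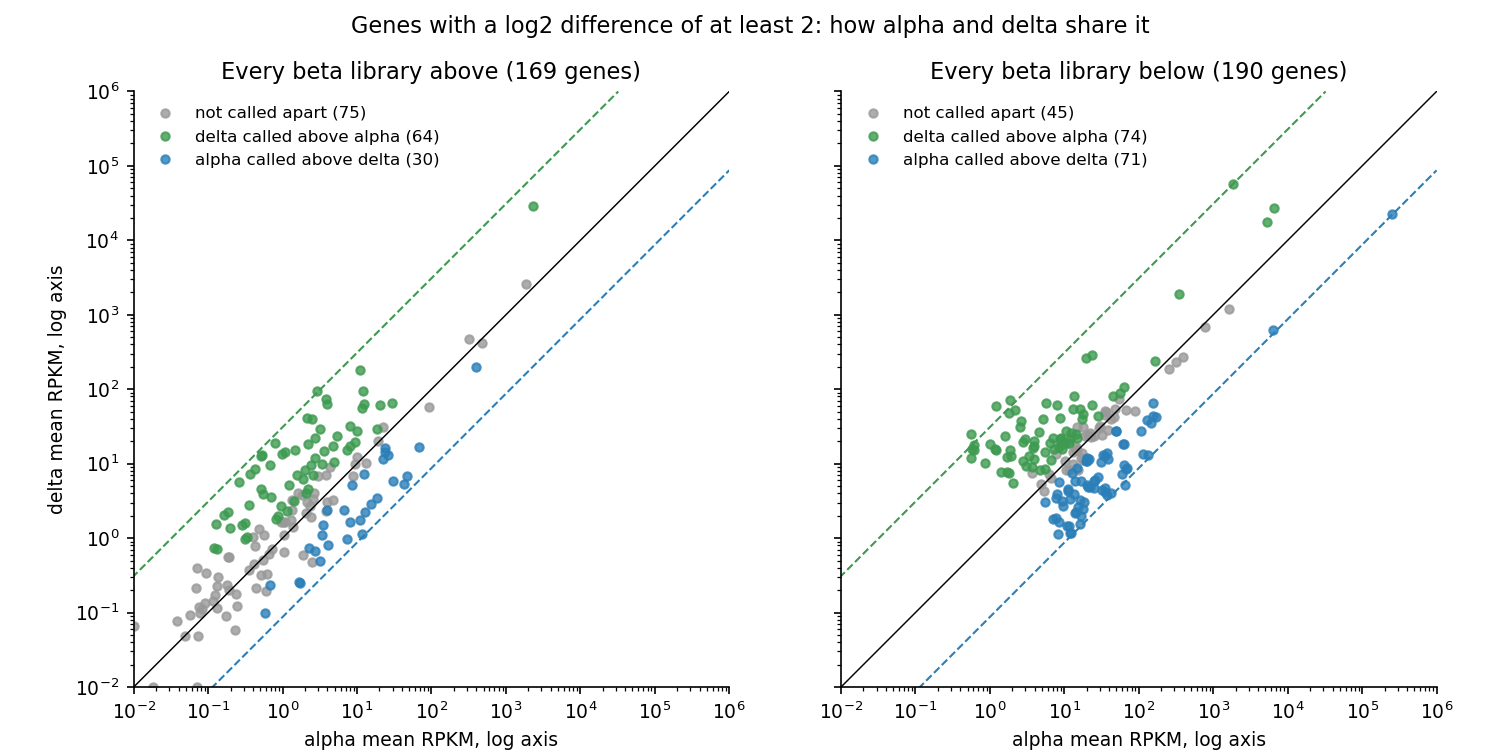
Delta mean against alpha mean, in RPKM on log axes, for the 169 genes above and the 190 below with a log2 difference of at least 2; colours give the limma call of delta against alpha, the solid line is equality and the dashed lines are the shares of Gcg in delta (8.72% of alpha) and of Sst in alpha (3.23% of delta), with 3 genes drawn at 0.01 RPKM whose mean was lower in 1 type. Genes below spread along both dashed lines as well as the line of equality.

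How evenly alpha and delta shared the difference was described with the delta minus alpha contrast. The rule uses the lowest or the highest of the same 5 libraries, which limits how far the 2 types can lie apart, so these counts are not independent of it. Among the 1662 called genes above, delta was called higher for 519 (31.2%) and alpha for 78 (4.69%), close to the 32.1% and 5.89% of all tested genes. Among the 2215 called genes below, delta was higher for 478 (21.6%) and alpha for 256 (11.6%). Over both, delta was the higher type for 74.9% of the 1331 genes called apart, and for 57.4% of 1039 after median-ratio scaling. Over all 12700 tested genes, unscaled, delta was called higher for 4076 and alpha for 748, a stronger lean to delta. With a log2 difference of at least 2 from beta, 75 of 169 genes above and 45 of 190 below were not called apart. Delta was called higher for 64 and alpha for 30 of those above, and for 74 and 71 of those below. These shares called apart exceed those of all tested genes. The means of alpha and delta were within 2-fold for 62 and 68. The alpha mean was at least 4 times the delta mean for 20 genes above and 36 below, and the reverse held for 43 and 39.

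Some genes below had levels in the lesser type near the share of that type's foreign hormone. In delta libraries Irx1 was at 12.5% of its alpha mean, Irx2 at 15.4%, Pdk4 at 12.0%, Avpr1b at 9.65% and Gfra3 at 12.0%, beside 8.72% for Gcg. In alpha libraries Neurog3 was at 2.03% of its delta mean, Cacna1h at 2.19%, Gap43 at 2.58%, Efnb3 at 3.88% and Dpp6 at 4.08%, beside 3.23% for Sst. After the subtraction of hormone-set shares, 1690 of the 2215 genes below (76.3%) and 162 of the 190 with a log2 difference of at least 2 still had no overlap. Gcg and Sst then overlapped by construction, since they set the shares, and so did Avpr1b, Gfra3, Gap43, Neurog3, Efnb3, Cacna1h, Dpp6, Hk1, Igfbp4, Ghrl, Gnai1, Far1 and Runx1t1. Peg10, Sgce, Gpx3, Fev, Irx1, Pdk4, Oxtr and Kcnk3 did not. For the genes above the subtraction takes beta levels off the other libraries, so that all 1662 still had no overlap follows from its construction and says nothing about foreign RNA. For some genes above the alpha level was near the share of Ins2. The alpha mean of Ucn3 was 0.852% of the beta mean, that of Mafa 0.82% and that of Sytl4 1.0%, beside 0.752% for Ins2. For others it was well over that share, such as G6pc2 (2.56%), Ero1lb (9.75%) and Fh1 (25.4%). The part of foreign cells or RNA in any 1 gene was not tested beyond this subtraction.

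Beta libraries did not contribute evenly to the genes below. Of the 190 with a log2 difference of at least 2, beta replicate 5 was the highest beta library for 136 and replicate 1 the lowest for 118. Gcg and Sst had the same extremes, at 464 and 99.6 RPKM in replicate 1 and 2852 and 922 in replicate 5. So did the factors of the median-ratio scaling, among beta libraries lowest in replicate 1 (0.845) and highest in replicate 5 (1.06). The levels compared here are unscaled, and the part of scale in this order was not tested. Without replicate 5 the count of genes with every beta library below was 2839, and without alpha replicate 1 it was 3126, beside 2225 with all libraries. Leaving out any library can only keep or raise this count, which ranged from 2265 to 3126. No single beta library held a like share of the 169 genes above, where replicate 2 was most often the highest, for 66.

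**Figure D4:**
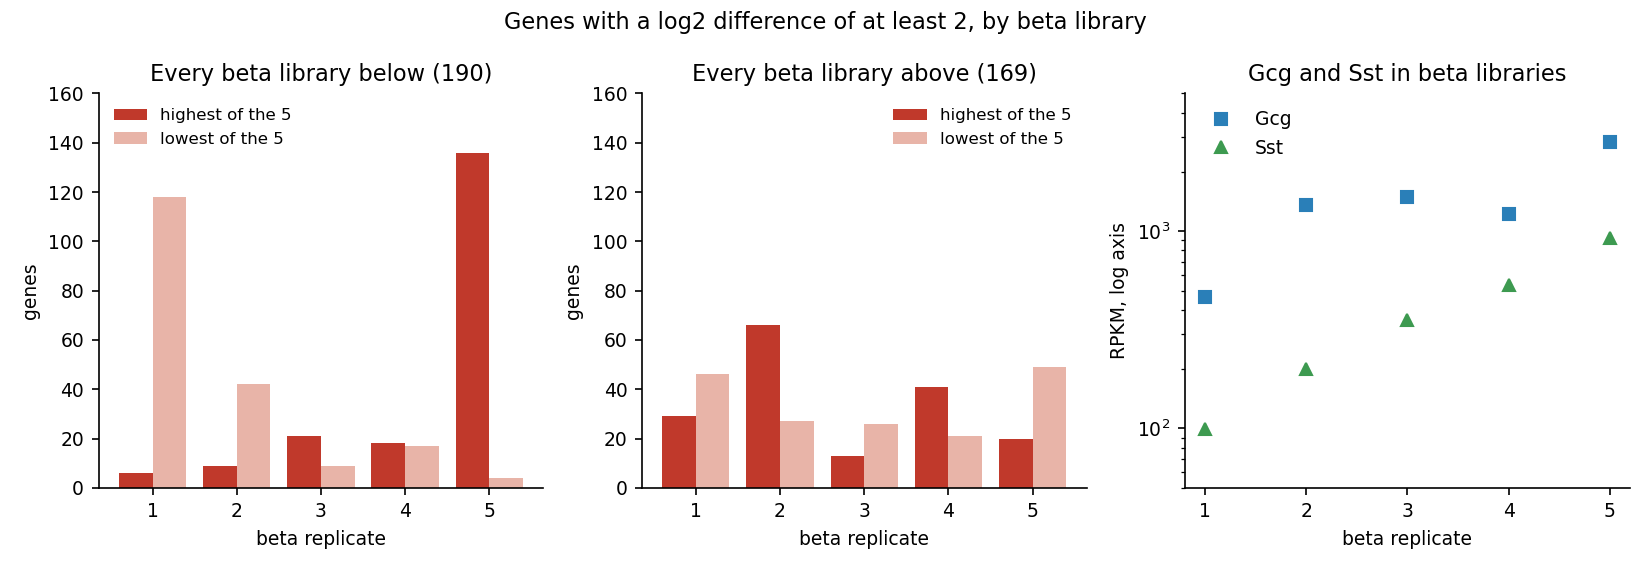
Left and middle, number of genes for which each beta replicate was the highest or the lowest of the 5, among the genes below (190) and above (169) with a log2 difference of at least 2; right, Gcg and Sst in the same libraries in RPKM on a log axis. Replicate 5 is highest for 136 genes below and has the highest Gcg and Sst, replicate 1 is lowest for 118 and has the lowest of both.

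Genes of axon guidance and neurites had the most members below, 21 of 46 tested (45.7%) against 4 above (8.70%), beside 17.5% and 13.2% of all tested genes. Gap43, a growth cone protein, was at 0.117 to 0.547 RPKM in beta, 0.774 to 2.58 in alpha and 68.2 and 74.5 in delta libraries (-3.41, SE 0.18). Ncam2 (-3.63, SE 0.20) was also highest in delta. Sema3e, a secreted guidance cue, was more evenly shared, at 0.178 to 1.37 RPKM in beta, 7.80, 11.9 and 10.2 in alpha and 19.8 and 17.6 in delta libraries (-3.20, SE 0.20). Tubb3, a neuronal tubulin, was above (2.80, SE 0.22). In cell adhesion and junctions 9 of 36 were below (25.0%) and 2 above (5.56%). The synaptic adhesion genes Nrxn2 (-1.67, SE 0.07), Nlgn2 (-1.62, SE 0.10) and Cadm1 (-2.56, SE 0.18) and Alcam (-2.03, SE 0.16) were below. Gjd2, the gap junction protein that couples beta cells, was above at 81.2 to 95.8 RPKM beside 8.62 to 28.3 (2.31, SE 0.08).

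Growth factor, BMP and Wnt signalling had 15 of 49 tested genes below (30.6%) and 6 above (12.2%). Gfra1, a co-receptor for glial-derived growth factor, was at 0.215 to 0.481 RPKM in beta, 12.7, 10.9 and 12.5 in alpha and 18.8 and 23.5 in delta libraries (-3.69, SE 0.09). Its relative Gfra3 (-2.79, SE 0.11), the Wnt antagonist Sfrp5 (-3.54, SE 0.24) and Fgf14 (-2.79, SE 0.09) were below, and the neurotrophin receptor gene Ntrk2 was above (2.66, SE 0.16). Of 15 tested genes counted as disallowed in beta cells, 5 were below (33.3%) and 2, Arhgdib and C1qbp, above (13.3%). Arhgdib was low in all libraries, at 0.430 to 1.60 RPKM in beta and 0.0450 to 0.365 in the others. Among beta libraries it was highest in replicates 1 and 2. Oat, of ornithine metabolism, was at 0.759 to 1.27 RPKM in beta and 6.3 to 33.9 in the others (-2.88, SE 0.13), and Igfbp4 at 0.119 to 0.635 and 1.05 to 16.6 (-1.94, SE 0.17). Eef1a2, a neuronal and muscle elongation factor, was at 1.12 to 3.30 RPKM in beta, 136 to 173 in alpha and 43.7 and 44.6 in delta libraries (-4.88, SE 0.17). Rbp4, a retinol carrier, was at 9.06 to 40.4 RPKM in beta, 314 to 374 in alpha and 1788 and 1963 in delta libraries (-5.35, SE 0.32). Arg1, arginase, was at 1.29 to 4.19 RPKM in beta, 16.5 to 23.4 in alpha and 284 and 244 in delta libraries (-4.52, SE 0.23).

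Of 25 tested immediate early and heat shock genes, limma called 16 lower and 4 higher in beta, beside 35.7% and 23.1% of all tested genes. Only 3 were below and 3 above without overlap (12.0% each). Jun was at 30.8 to 43.2 RPKM in beta, 100.04 to 125 in alpha and 174 and 228 in delta libraries (-1.98, SE 0.13), and Junb (-1.09, SE 0.11) and Egr2 (-1.68, SE 0.25) were also below. Fos and Egr1 overlapped, Fos at 51.2 to 154 RPKM in beta and 58.8 to 457 in the others. Ier3 (1.07, SE 0.23) and Ier5 (1.20, SE 0.10) were above. Such genes are known to respond to tissue dissociation, and their part in other results was not tested. In the cell cycle list 3 of 13 tested were above (23.1%), Ccne1, Cdk4 and Ccnd3, with differences of 0.41 (SE 0.08), 0.43 (SE 0.07) and 0.45 (SE 0.09), and 1 below (7.69%), the inhibitor gene Cdkn1b (-0.60, SE 0.08).

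Immune cell markers moved with the genes above. Of 11 tested 10 had every beta library above and none below. Their summed level over 16 listed genes was 130 to 252 RPKM in beta, 25.2 to 45.0 in alpha and 76.9 to 90.0 in delta libraries. Cd74, the chaperone of MHC class II molecules, was at 72.6, 72.0, 39.6, 36.4 and 32.6 RPKM in beta, 1.69, 2.43 and 2.19 in alpha and 2.83 and 3.20 in delta libraries (3.81, SE 0.25). H2-Aa (3.68, SE 0.23), H2-Eb1 (3.08, SE 0.21) and the complement gene C1qb (2.94, SE 0.28) were above, and beta replicates 1 and 2 had the highest levels of each. C1qa overlapped, at 21.1 to 40.2 RPKM in beta, 11.1 to 17.7 in alpha and 57.7 and 73.5 in delta libraries. Lyz2, Emr1, Cd3e and Tyrobp were listed at 0 in both delta libraries and Cd3e in all alpha libraries. Apoe, which macrophages make and which the lipid list holds, was also highest in beta replicates 1 and 2 (51.6, 55.8, 20.7, 27.0 and 20.5 RPKM in replicates 1 to 5). The part of immune cells in the genes above was not tested. Of 10 tested ductal markers 1, Krt7, was above, at 320 to 460 RPKM beside 123 to 194 (1.28, SE 0.09), and 3 were below. The 13 listed ductal markers summed to 999 to 2180 RPKM in alpha, 775 to 1020 in beta and 872 to 1010 in delta libraries.

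A few genes were near-absent on 1 side. In all, 19 genes were under 1 RPKM in each alpha and delta library and at least 5 in each beta library, and 17 the reverse. The first set, named here because the count singles it out, held Tmem215, Emilin1, Gad1, Fam129a, Msln, Ctss, Trpm5, Car10, Mnx1, Angptl7, Slco1a6, H2-Eb1, Fhdc1, Cib3, Galr1, Mlph, Olfm4, Ovol2 and Adora3. Tmem215, a membrane protein, was at 45.6, 63.4, 50.7, 63.6 and 56.5 RPKM in beta, 0.539, 0.679 and 0.746 in alpha and 0.399 and 0.818 in delta libraries (5.07, SE 0.08). The second set held Sorcs2, Klhl13, Gm609, Irx1, Kcnk3, Tspan12, Gfra1, Ndst4, Gria2, Dpp10, Nyap1, Ptprk, Cfi, Slc2a3, Serpine2, Ncs1 and Iqsec1. Sorcs2, a sorting receptor of neurons, was at 0.200 to 0.884 RPKM in beta and 16.8 to 41.9 in the others (-4.31, SE 0.12).

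Several of the genes with a log2 difference of at least 2 were neighbours in the genome. Within 20000 bases, 18 adjacent pairs were found, chosen after their values were seen, and in 17 of them both genes lay on the same side. Besides Sgce and Peg10, B830017H08Rik and Car15 were 256 bases apart on chromosome 16 (5.31 and 4.61), Ffar4 and Rbp4 2356 bases apart on chromosome 19 (-3.42 and -5.35), and Ppy and Pyy 5356 bases apart on chromosome 11. Spc25 lies 4859 bases from G6pc2 on chromosome 2 and was above (2.42), while Nostrin, on its other side at 4564 bases, was below (-2.11). Since the strand of reads is not kept, reads of overlapping or adjoining genes could not be told apart.

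In 19 of the 20 functional lists the side with more genes was the same after median-ratio scaling and after subtraction, and in the immediate early list the counts were equal at first. In the list plot, the dashed lines give the share of all tested genes in each direction. Lists of mitochondrial and folding genes reached furthest above, and those of GABA and glutamate, neurites and transcription factors furthest below.

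**Figure D5:**
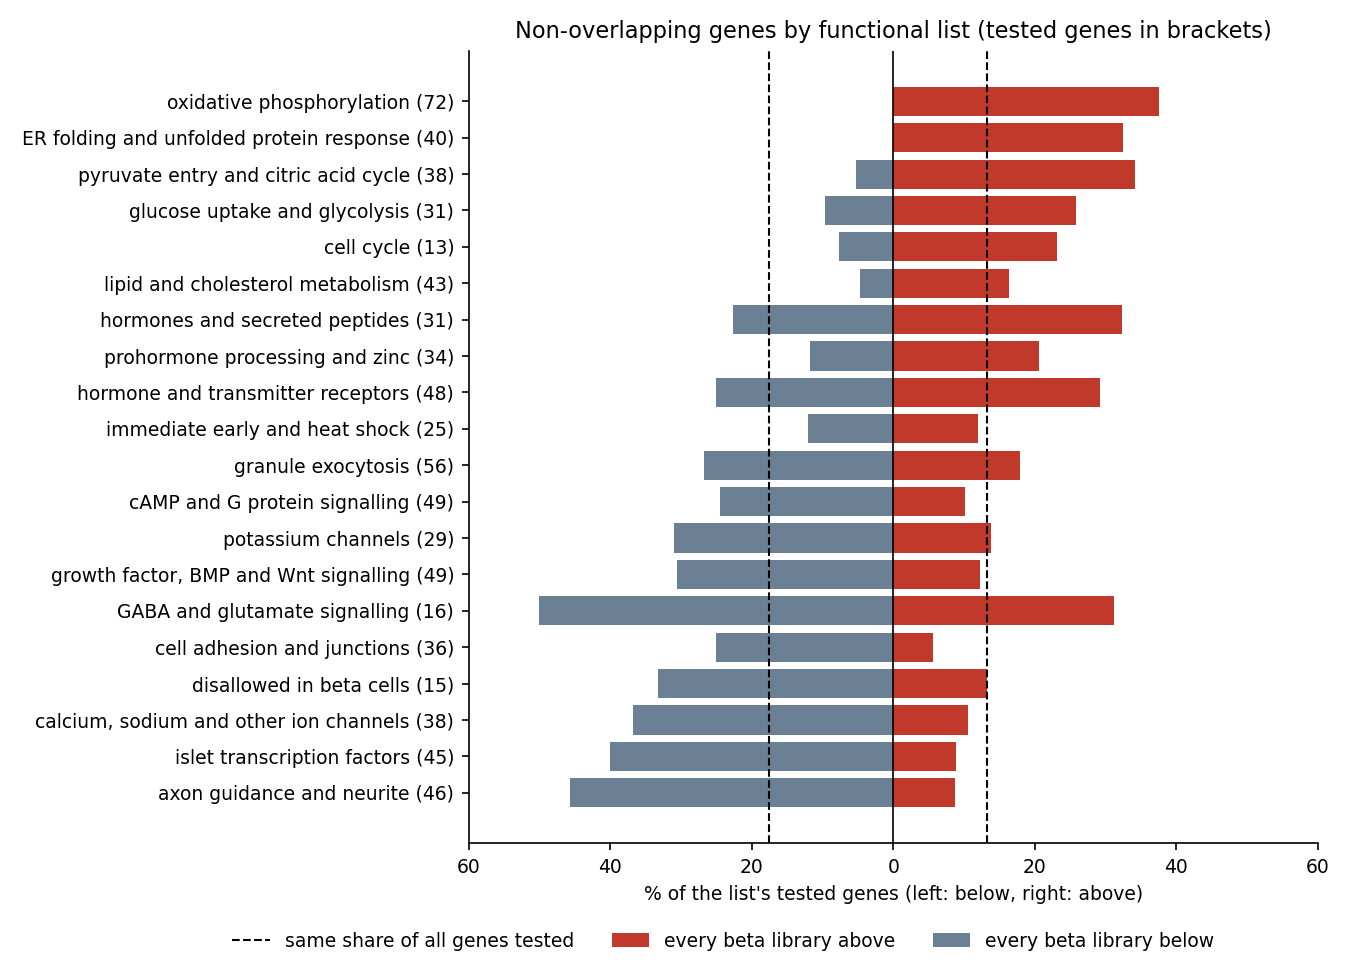
Percent of each functional list's tested genes (number in brackets) with every beta library above (right) or below (left) all alpha and delta libraries; dashed lines, the same percent of all 12700 tested genes (13.2 and 17.5). Oxidative phosphorylation reaches 37.5% above with none below, and axon guidance and neurite 45.7% below with 8.70% above.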

How the data were processed

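RNA levels were read from 1 table of the authors, who deposited RPKM values (read counts divided by gene length and library total) for 19213 gene entries and 10 libraries. The tools named in the submitters' processing notes are STAR 2.4, featureCounts and edgeR 3.12.0, with genome build GRCm38.p3. Which annotation was used, and how reads that fit several genes were treated, was not given in the sources used here. The TruSeq RNA kit v2, per the labels' protocols, was used for the libraries and does not keep the strand. Library totals were recovered from the steps of the low RPKM values and were 16688097 to 26684086 reads. No 2 libraries shared more than 1 identical value above 0.

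The test was limma (version 3.58.1, R 4.3.3) on log2(RPKM + 1), with terms for cell type and sex over the 10 libraries, a mean-variance trend and 6 residual degrees of freedom. Genes with at least 1 RPKM in at least 2 libraries were tested, 12700 in number, with Benjamini-Hochberg adjustment over all of them. The script was checked on simulated data with 200 changed genes. Because RPKM is relative to the library total, a large share of hormone reads lowers all other values. The design text gives replicate pools of animals but not which libraries share a pool, so a p-value reflects the spread among these libraries alone, which may be technical. An alpha pair and a beta pair of titles differ by a letter only, and the labels do not say what it marks.

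The rule, the 30 gene lists and the choice of beta cells against both other types were made with earlier results of these data known. Named genes were, for each list, up to 5 called non-overlapping members with the largest difference and up to 3 others by mean RPKM. The 10 largest differences in each direction, the 5 most and least even between alpha and delta, the 2 on each side of the rule's edge, the markers and the main hormones were added. Of the symbols, 27 look like dates, as spreadsheets make of such names, and 2 are repeated. Promoter windows and coordinates are those of RefSeq, GRCm38.p6, matched by symbol or synonym. The alternatives were pseudocount 0.1, other filters, median-ratio scaling, no sex term, alpha and delta as 1 group, each sex alone, subtraction of hormone-set shares, wider gaps each library left out and, added later, a block by title numbers. Results on 1 item are not reported here.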

Additional observations from a re-analysis of the deposited data

Results flagged for a closer look

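For 9 of 171 genes named in the report, 1 of the 5 beta libraries lay apart from the others on log2(RPKM + 1), by a gap over 0.71 of the whole beta range (Dixon's 95% critical value for 5). Chance flags about 1 group in 20. Slc2a2 was highest in beta replicate 2, at 165 RPKM beside 84.8 in the next. Atp5g1 was lowest in replicate 3, at 11.3 RPKM beside 17.7. Mt2 was lowest in replicate 2, at 1870 RPKM beside 2450. Gpr158 was lowest in replicate 1, at 14.5 RPKM beside 21.3. Kcnj12 was lowest in replicate 5, at 2.47 RPKM beside 3.65. Fam129a was highest in replicate 4, at 35.6 RPKM beside 21.7. Pyy was highest in replicate 5, at 626 RPKM beside 399. Kcna5 was highest in replicate 5, at 0.200 RPKM beside 0.0573. Gnas was lowest in replicate 1, at 146 RPKM beside 168. All 9 genes were chosen by the rule, which requires each library to lie on its side of all alpha and delta libraries. That it did so here is no check of these genes.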

How the results depend on the processing

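Over the 171 genes named, alternatives kept the direction of each except C1qa, which overlapped and was not called. C1qa moved from -0.10 to 0.0428 after median-ratio scaling, 0.0801 with alpha and delta as 1 group and 0.0059 after subtraction. It ranged from -0.2205 to 0.0486 with each library left out. For the genes above or below, the rule largely fixes the direction when libraries are left out, 1 sex is taken or the pseudocount is changed. Their kept direction is therefore no check of them. Of 168 called, 18 lost the call under at least 1 of 20 alternatives, among them Slc30a8 with each sex alone and Ghrl under 6. With female libraries alone 1236 genes were called higher and 1799 lower in beta, with male libraries alone 1422 and 2019, where fewer libraries were fitted. Requiring a gap of 1.5-fold left 404 genes above and 425 below, and of 2-fold 194 and 211. The counts above and below cannot fall when a library is left out, so their range is no check of the rule. Leaving out each library in turn gave 2469 to 2897 genes called higher, 3496 to 4679 lower, 1691 to 1965 above and 2265 to 3126 below, and 841 to 1590 non-overlapping genes called apart between delta and alpha (841 without delta replicate 1, 906 without delta replicate 2, beside 1331). Shared islets are not named in the labels, but by consecutive title numbers, letter and sex 4 beta libraries could be paired with an alpha or delta library (1 with delta 1, 2 with delta 2, 3 with alpha 2, 5 with alpha 3). Deviations from the group means correlated within these pairs by 0.0014, 0.37, 0.27 and 0.46 across genes, and 1 of the 4 beta libraries correlated best with its partner, so the pairing is not established. A replicate block by these pairs, added after the data were seen and fitted on those 8 libraries with 2 residual degrees of freedom, called 2951 genes higher and 5243 lower in beta and 1291 apart between delta and alpha, and no named gene lost its call. At 16.7 to 26.7 reads per kilobase for 1 RPKM, levels far under 1 RPKM rest on few reads.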
